A study of Cricetulus griseus with 40 samples.

Results

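Collagens, laminins and integrins were followed through a batch culture of CHO-S cells, which derive from Chinese hamster ovary, grow in suspension and serve to produce recombinant proteins. Members were chosen by gene symbol: every collagen chain, every laminin alpha, beta or gamma chain, and every integrin alpha or beta chain found by its name. The deposited files list 68 such genes, and 24 of them reached at least 1 FPKM in at least 4 libraries, out of 12259 genes that did so. Only 15217 of 26793 gene IDs could be given a symbol, so chains without one are not among the members, and counts such as all 9 collagens cover the named chains. FPKM count fragments per transcript length and per library size, so levels of different genes are compared here per length. All cells grew unfed in shake flasks of CD CHO medium to which L-glutamine, an anti-clumping agent and penicillin-streptomycin had been added, and no group received a further treatment. The groups are 10 times after seeding, every 12 h from 72 h to 180 h, with 4 libraries each. Labels tie no library to a particular flask, so p-values here reflect only how far the 4 libraries of each time differ, which may in part be technical.

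Collagens are secreted as chains that wind into triple helices, after prolines and lysines have been hydroxylated in the endoplasmic reticulum. Laminins are secreted heterotrimers of an alpha, a beta and a gamma chain and form, with type IV collagen, the sheet of the basement membrane. Integrins are membrane receptors of an alpha and a beta chain that bind these proteins and fibronectin and connect them to the actin cytoskeleton. CHO-S cells grow in suspension without a substrate, so these transcripts belong to adhesion genes of cells that are not attached.

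Many chains, among them those of type I collagen, were at or near 0 in CHO-S cells. Of the 44 genes under the filter, 8 were listed at 0 in all 40 libraries and 31 stayed under 0.1 FPKM in every one. Col1a1 and Col1a2, the chains of type I collagen, peaked at 0.0288 and 0.0409 FPKM, and Col2a1, the cartilage collagen, at 0.0159 FPKM. The nearest to the filter were Col3a1, the fibrillar collagen of soft tissues, with a highest value of 0.790 FPKM, and Col5a3 with 0.535 FPKM. Among laminins, Lama1 and Lama4 peaked at 0.0175 and 0.0127 FPKM, and among integrins Itga4, Itga11 and Itgb8 were listed at 0 throughout. Itgb2, the beta chain of leukocyte integrins, peaked at 0.152 FPKM and Itgb3 at 0.0845 FPKM. A listed 0 may be an estimate that failed, so absence is not read from it. The 24 measured members were 9 collagens, 5 laminin chains and 10 integrin chains. Col7a1, Col17a1 and Itgax were under 1 FPKM in every library of 72 h and passed the filter only through later times, so that counts over the 24 describe the genes that passed.

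Summed FPKM per library ran from 463992 to 575241, with depth unknown. Libraries of 1 time differed along a shared axis, the first principal component of the residuals within times over genes that are no members, which held 52.2% of that variance. Replicate 4 had the lowest score at 5 times (84, 108, 132, 156 and 180 h), replicate 1 at 4 times (96, 120, 144 and 168 h) and replicate 2 at 1 time (72 h). Scores of replicates 1 and 4 had opposite signs at every time, and both switched sign from each time to the next. The spread on the axis thus followed replicate number and sampling order, and its source was not tested. The most distant scores were those of 96 h replicate 1 and 84 h replicate 4. Members moved along it by a median of 0.32 on the log2 scale per SD of the score, against -0.01 for all genes. Of mesenchymal markers, Vim (472 to 874 FPKM), Fn1, S100a4 and Zeb1 were measured in every library, and Cdh2 and Twist1 were listed at 0. The summed level of this list ran from 3474 to 5551 FPKM at 72 h and from 8571 to 10258 FPKM at 180 h, mostly S100a4 (means of 3984 and 8411 FPKM), and its part in the results was not tested. Among 16 listed marker genes for other cell types only 3 passed the filter: Alb (0.112 to 1.47 FPKM), Acta2 and Pdgfrb. Ptprc, Hbb, Cd3e and Krt14 were listed at 0 in all libraries. The summed level of the 16 ran from 44.8 to 56.7 FPKM at 72 h and from 65.5 to 74.4 FPKM at 180 h, nearly all of it Pdgfrb, with means of 22.9 and 48.3 FPKM, and Acta2, with 26.4 and 19.5 FPKM; its part was not tested either. These are bulk RNA values, in which a change per cell and a change in the mixture of cells cannot be told apart.

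At 180 h, 14 of the 24 members were higher than at 72 h and 2 were lower. All 9 collagens rose, no laminin chain rose, and of the integrins 5 alpha chains rose and 1 fell while no beta chain passed the test. Changes are log2 differences of FPKM + 1 from limma over all genes, two-sided, and count as past the test where the Benjamini-Hochberg adjusted p was below 0.05. At an unadjusted p below 0.05, 1 laminin chain (Lama5) and 0 beta chains were higher. With a minimum fold of 1.5 the collagens Col16a1, Col17a1, Col27a1 and Col4a1 did not pass. With array weights Lama5, Lamb2 and the beta chain Itgb5 passed upward. Over all genes 15.8% were called higher and 33.5% lower. The median change was 0.89 over the 24 members and -0.10 over all genes. In 15 members the 4 libraries of 180 h and the 4 of 72 h did not overlap, 13 of them higher and 2 lower, against 15.2% and 30.8% of all genes. Over all 10 times 17 of 24 members differed, against 49.9% of all genes, and 24 of 24 with the within-time axis, described above, as a covariate (80.8%). Errors with this covariate leave out shifts of a whole time along the axis, so its p-values may be too small, here and below.

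**Figure D1:**
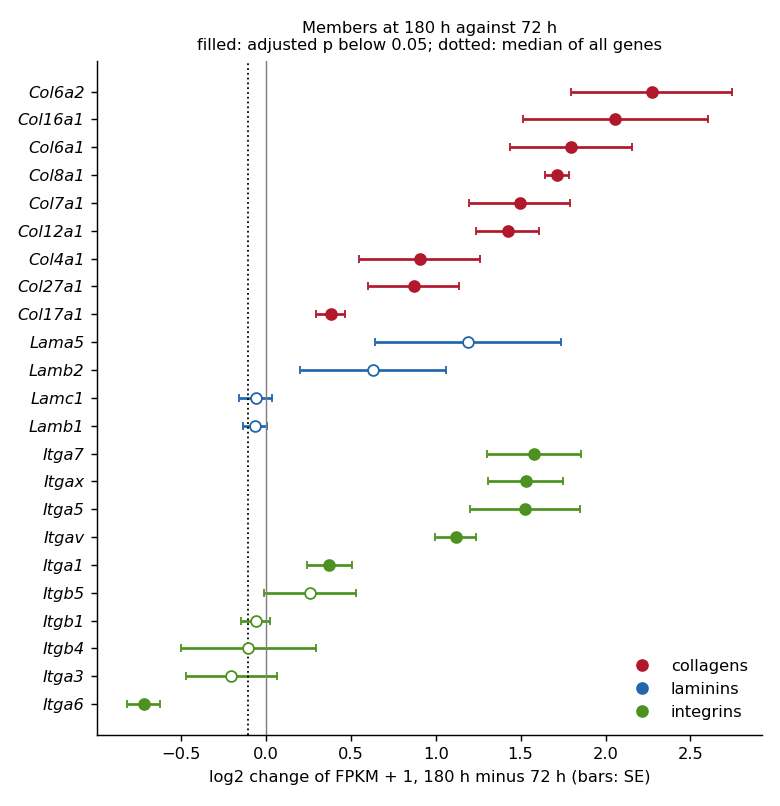
Log2 change of the members named here at 180 h against 72 h (points, with SE bars), ordered within collagens, laminins and integrins. All 9 collagens lie to the right of 0 and are filled (past the test), from 0.38 for Col17a1 to 2.27 for Col6a2, while Lamb1 (-0.07), Lamc1 (-0.06) and Itgb1 (-0.06) are open and lie between 0 and the median of all genes, -0.10 (dotted line).

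Both measured chains of type VI collagen, which forms beaded microfilaments around cells, rose, and Col6a2 had the largest log2 change of the members. Col6a2 stood at 39.5, 39.7, 77.4 and 74.1 FPKM in replicates 1 to 4 of 72 h and at 407, 300.1, 261 and 162 FPKM at 180 h. Every library of 180 h was above every library of 72 h, and replicate 4 was the lowest at 180 h but not at 72 h. The change was 2.27 ± 0.48 (SE, adjusted p = 1.69e-04). Its partner Col6a1 measured 71.1, 66.6, 111 and 105 FPKM at 72 h. At 180 h it reached 381, 346, 293 and 214 FPKM, again without overlap and with replicate 4 lowest (1.80 ± 0.36, adjusted p = 9.83e-05). Both genes stand next to each other in the reference assembly, and their means climbed together from 88.5 and 57.7 FPKM at 72 h to 317 and 275 FPKM at 144 h. Col6a2 came to 63.8 ± 7.41% of the level of Col6a1 at 72 h and to 89.6 ± 12.9% at 180 h (mean ± SD, n = 4). The chain that normally completes the type VI heterotrimer, Col6a3, was not analysed here.

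The basement membrane collagen Col4a1 had the highest mean of the measured collagens at every sampling time except 156 h. At 156 h Col6a1 averaged 308.19 FPKM and Col4a1 307.99 FPKM. It measured 120, 128, 208 and 211 FPKM at 72 h and 439, 329.6, 295 and 197 FPKM at 180 h, where replicate 4 lay below the upper libraries of 72 h. The rise of 0.90 ± 0.36 (adjusted p = 0.0357) was therefore less firm than that of the type VI chains. It was lost without replicate 1 or 2 of 72 h (adjusted p = 0.111 and 0.0988), without replicate 1, 2 or 3 of 180 h (0.13, 0.0734 and 0.0559), and with no filter on low values (0.0552). With a minimum fold of 1.5 it was lost too. Col4a2, the usual partner of Col4a1 and its neighbour in the reference assembly, was not analysed here.

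Col16a1 and Col12a1, which attach to the surface of collagen fibrils, both rose. Col16a1 measured 12.5, 11.6, 26.6 and 25.5 FPKM at 72 h and 134, 87.8, 75.3 and 40.1 FPKM at 180 h. The groups did not overlap, with replicate 4 again the lowest at 180 h (2.06 ± 0.55, adjusted p = 0.00215). Col12a1 went from 4.73 ± 0.94 to 14.3 ± 1.68 FPKM (1.42 ± 0.19, adjusted p = 9.20e-08). It is the only member whose gene ID stands on more than 1 line of the files.

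Col8a1, a short-chain collagen of vessel walls and corneal membranes, had the smallest SE of the members at 180 h against 72 h (0.071). That of Lamb1 was close (0.073). It measured 11.1, 11.6, 10.7 and 10.5 FPKM at 72 h and 40.2, 36.2, 37.2 and 39.7 FPKM at 180 h, and no time before 168 h overlapped with 180 h. The change of 1.71 ± 0.07 (adjusted p = 1.05e-19) had the smallest p of the 24 members. The other chain of type VIII, Col8a2, peaked at 0.178 FPKM.

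Col7a1, Col27a1 and Col17a1 rose at low levels. Col7a1, the anchoring fibril collagen of skin, went from 0.696 ± 0.206 to 3.93 ± 1.44 FPKM (1.49 ± 0.30, adjusted p = 8.89e-05). Col27a1, a fibrillar collagen of cartilage, went from 1.29 ± 0.40 to 3.27 ± 1.27 FPKM (0.87 ± 0.27, adjusted p = 0.00707). Col17a1, a membrane collagen of epithelial hemidesmosomes, measured 0.543, 0.526, 0.389 and 0.576 FPKM at 72 h and 1.20, 0.951, 0.758 and 0.969 FPKM at 180 h (0.38 ± 0.09, adjusted p = 3.66e-04). At these levels the added 1 FPKM shrinks the log2 change, which for Col7a1 compares with a ratio of means of 5.65.

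**Figure D2:**
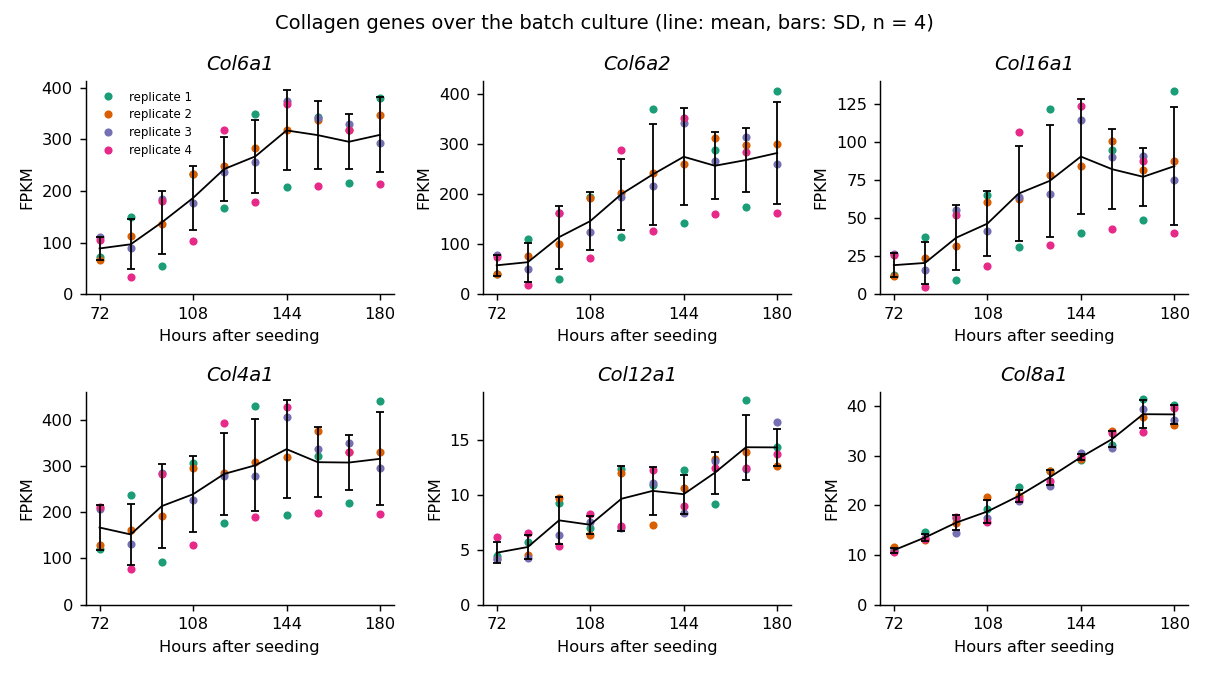
FPKM of 6 collagen genes in each library against hours after seeding, with the mean and SD of 4 libraries. Col6a1, Col6a2, Col16a1 and Col4a1 climb to about 144 h with wide spread, whereas Col8a1 climbs to 168 h with an SD of at most 2.79 FPKM.

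Summed over the 9 measured collagens, levels went from 350 ± 101 FPKM at 72 h to 1068 ± 319 FPKM at 144 h and 1052 ± 313 FPKM at 180 h. The 5 laminin chains summed to 328 ± 35.9 and 355 ± 31.7 FPKM at 72 h and 180 h, and the 10 integrin chains to 556 ± 12.4 and 694 ± 14.9 FPKM. At 72 h Itgb1 led the order of levels (367 ± 21.8 FPKM), ahead of Lamb1 (187 ± 9.12) and Col4a1 (167 ± 49.3), which overlapped each other. At 180 h Itgb1 (353 ± 32.6 FPKM) was followed by Col4a1 (315 ± 100.04), Col6a1 (309 ± 72.6) and Col6a2 (283 ± 101), each overlapping the next, and Lamb1 (178 ± 5.02) came next. Of the 23 neighbours in the order, 18 overlapped at 72 h and 21 at 180 h.

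The main laminin beta and gamma chains did not pass the test. Lamb1 stood at 187 ± 9.12 and 178 ± 5.02 FPKM (-0.07 ± 0.07, adjusted p = 0.472) and Lamc1 at 103 ± 10.9 and 98.5 ± 5.32 FPKM (-0.06 ± 0.10, adjusted p = 0.63). These are the beta and gamma chains shared by most laminins. Lamb1 did differ over all 10 times (adjusted p = 0.0225), with its lowest mean, 158 ± 17.4 FPKM, at 84 h.

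Lama5, the broadly expressed laminin alpha chain and the only alpha chain measured among the named genes, ranged from 15.2 to 39.5 FPKM at 72 h and from 28.8 to 92.2 FPKM at 180 h. Its means were 26.2 ± 12.8 and 60.4 ± 26.1 FPKM, with 14 of 16 pairs of libraries higher at 180 h. It missed the threshold (1.19 ± 0.55, adjusted p = 0.0721) but differed over all 10 times (adjusted p = 0.0354). It passed without replicate 4 of 72 h (adjusted p = 0.0472), without replicate 4 of 180 h (0.0327), with median-ratio scaling (0.0441) and when the within-time axis was a covariate (2.15e-13). Lama5 also passed with array weights (2.63e-05), with only the libraries compared (0.0399) and without the 2 libraries farthest out (0.0219). Lamb2, the beta chain of neuromuscular and kidney laminins, stood at 9.90 ± 3.54 and 15.8 ± 5.14 FPKM (0.63 ± 0.43, adjusted p = 0.231). It passed upward with the axis as a covariate (2.17e-08) and with array weights (5.74e-04).

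Of the 7 measured integrin alpha chains 5 rose and 1 fell, and none of the 3 beta chains passed the test (0 also at an unadjusted p below 0.05, limma). Itgb1, the beta chain shared by most matrix-binding integrins, measured 377, 394, 347 and 352 FPKM at 72 h and 326, 329, 359 and 396 FPKM at 180 h. The groups overlapped across nearly their whole range (-0.06 ± 0.09, adjusted p = 0.567). With median-ratio scaling its change was 0.08, also short of the threshold. Itgb5, which joins Itgav to bind vitronectin, stood at 86.3 ± 18.4 and 103 ± 16.8 FPKM (0.26 ± 0.27, adjusted p = 0.441). It passed upward with the axis as a covariate (adjusted p = 0.00182) and with array weights (0.00501).

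Itga5, which with Itgb1 makes the fibronectin receptor, measured 43.6, 40.6, 62.7 and 59.1 FPKM at 72 h and 175, 154, 147 and 119 FPKM at 180 h. No libraries overlapped (1.52 ± 0.33, adjusted p = 2.16e-04). Itgav, the alpha chain of vitronectin receptors, measured 30.5, 30.8, 25.1 and 26.5 FPKM and then 53.8, 59.3, 66.0 and 70.9 FPKM, a rise of 1.12 ± 0.12 (adjusted p = 1.85e-09). In Itgav replicate 4 was the highest library of 180 h, whereas in Itga5 it was the lowest.

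Itga7, a laminin receptor chain of muscle, and Itgax, a leukocyte chain, rose from low levels. Itga7 measured 1.20, 1.25, 1.69 and 1.70 FPKM at 72 h and 8.38, 7.21, 6.54 and 3.94 FPKM at 180 h (1.58 ± 0.28, adjusted p = 1.57e-05). Itgax measured 0.326, 0.324, 0.391 and 0.467 FPKM and then 4.74, 2.87, 2.62 and 2.09 FPKM (1.53 ± 0.22, adjusted p = 5.71e-07). All libraries of 180 h were above those of 72 h in both genes. Itgax had the largest ratio of means of the 24 members, 8.17, but it was under 1 FPKM throughout 72 h and passed the filter only through later times. Itgb2, its known partner, had means of 0.0197 and 0.0149 FPKM. Itga1, a collagen receptor chain, went from 1.58 ± 0.22 to 2.36 ± 0.48 FPKM (0.37 ± 0.13, adjusted p = 0.0198). That call was lost without replicate 3 of 72 h (adjusted p = 0.058), without replicate 4 of 180 h (0.0872) and with a minimum fold of 1.5.

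Itga6, a laminin receptor chain of epithelia and stem cells, was the integrin that fell. It measured 2.63, 2.96, 2.66 and 3.07 FPKM at 72 h and 1.47, 1.14, 1.12 and 1.59 FPKM at 180 h, all lower (-0.72 ± 0.10, adjusted p = 1.69e-07). Itga3, also a laminin receptor chain, stood at 12.6 ± 3.43 and 10.7 ± 2.28 FPKM (-0.20 ± 0.27, adjusted p = 0.544). It passed downward with the axis as a covariate (adjusted p = 0.00552), also with array weights added (0.0168). With array weights alone its change was 0.02 (adjusted p = 0.932). Itgb4, which pairs only with Itga6, stood at 3.42 ± 1.55 and 3.04 ± 1.08 FPKM (-0.10 ± 0.40, adjusted p = 0.849).

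**Figure D3:**
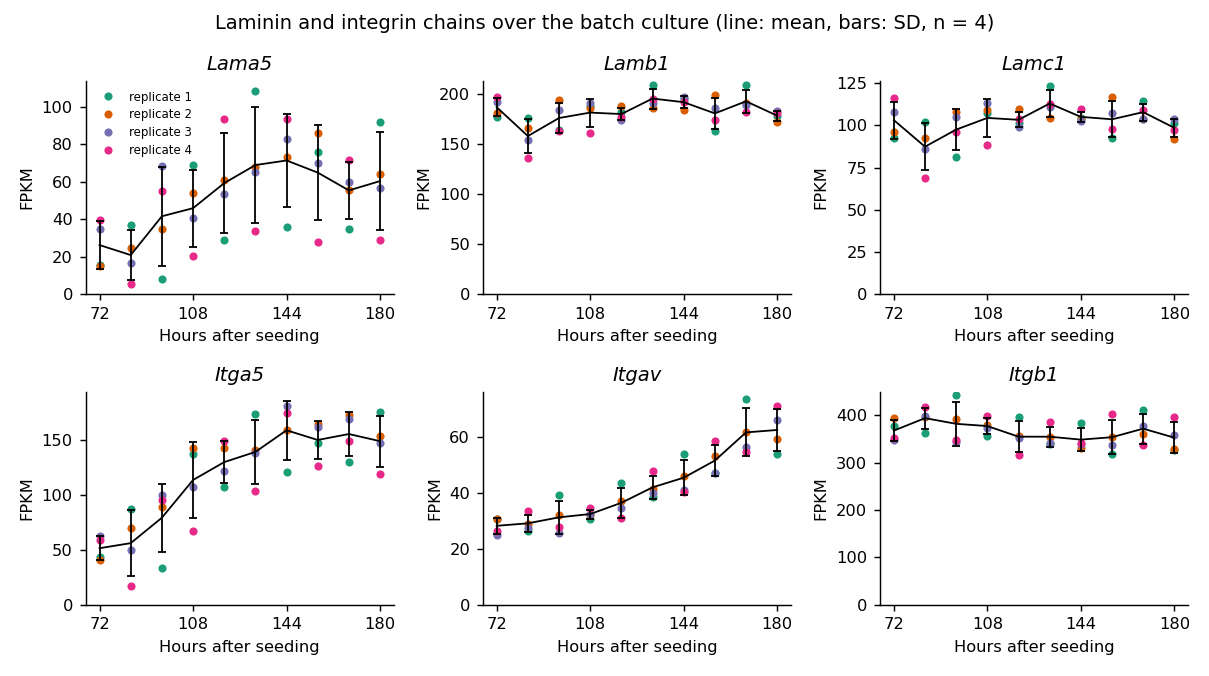
FPKM of 3 laminin and 3 integrin chains in each library against hours after seeding, with the mean and SD of 4 libraries. Lamb1 has means between 158 and 196 FPKM, Itga5 climbs to 159 FPKM at 144 h and Itgav keeps climbing to 62.5 FPKM at 180 h, while Lama5 has wide spread at every time.

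Of 12 pairs of chains, 7 changed their ratio by the test below and 5 did not pass it. The pairs are chains that assemble together, except Lamb2 and Lamb1, which are paralogous beta chains. The log2 ratio of the chains of a pair, called partner ratio here, was taken in each library for the listed pairs with both chains measured. The ratios of 180 h were set against those of 72 h by a two-sided exact permutation test. With 4 libraries a time the smallest p is 0.0286. The 7 pairs that reached it have an adjusted p of 0.049 over the 12, and they pass together: 0 passed when any 1 library of 72 h was left out, or replicate 2 or 3 of 180 h, or with 5 FPKM added. Itga5 rose against Itgb1 by 1.59, from a log2 ratio of -2.83 ± 0.39 to -1.25 ± 0.36 (SD, n = 4). Itga7 rose against Itgb1 by 1.64, Itgav by 1.18 and Itga1 by 0.44, whereas the ratio of Itga6 to Itgb1 fell by 0.66. Itgav also rose against Itgb5, by 0.85. The ratio of Col6a1 to Col6a2 fell by 0.48, from 0.65 ± 0.16 to 0.17 ± 0.20.

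The other 5 pairs did not reach the threshold. The ratio of Lamb1 to Lamc1 was 0.86 ± 0.08 at 72 h and 0.85 ± 0.05 at 180 h (exact p = 0.943, adjusted p = 0.943, n = 4). Lamb1 stood between 173 and 183% of Lamc1 in the means of all 10 times. Lama5 against Lamc1 went from -2.06 ± 0.57 to -0.81 ± 0.68, or from 24.7 ± 9.83% to 61.2 ± 25.8% of the level of Lamc1 (exact p = 0.0857, adjusted p = 0.129, n = 4). Lamb2 to Lamb1 changed by 0.69, Itga3 to Itgb1 by -0.14 and Itga6 to Itgb4 by -0.62 (adjusted p = 0.152, 0.717 and 0.206, exact permutation).

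Measured alpha chains that can pair with Itgb1 (Itga1, Itga3, Itga5, Itga6, Itga7 and Itgav) summed to 98.2 ± 11.6 FPKM at 72 h and 232 ± 19.8 FPKM at 180 h. Their sum came to 26.9 ± 4.70% of the level of Itgb1 at 72 h and 44.3 ± 11.3% at 108 h, then stood at 66.02 ± 10.5% (144 h) and 66.6 ± 11.02% (180 h). Itga5 made up 52.0 ± 5.2% of that sum at 72 h and 69.2 ± 4.69% at 144 h, and Itgav 29.3 ± 6.34% and 20.3 ± 5.28%. At 180 h Itgav was back at 27.2 ± 5.56%. The share of Itga3 went from 12.7 ± 2.04% at 72 h to 4.56 ± 0.61% at 180 h, and that of Itga6 from 2.91 ± 0.38% to 0.578 ± 0.135%. These shares describe transcripts per length and were not tested.

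**Figure D4:**
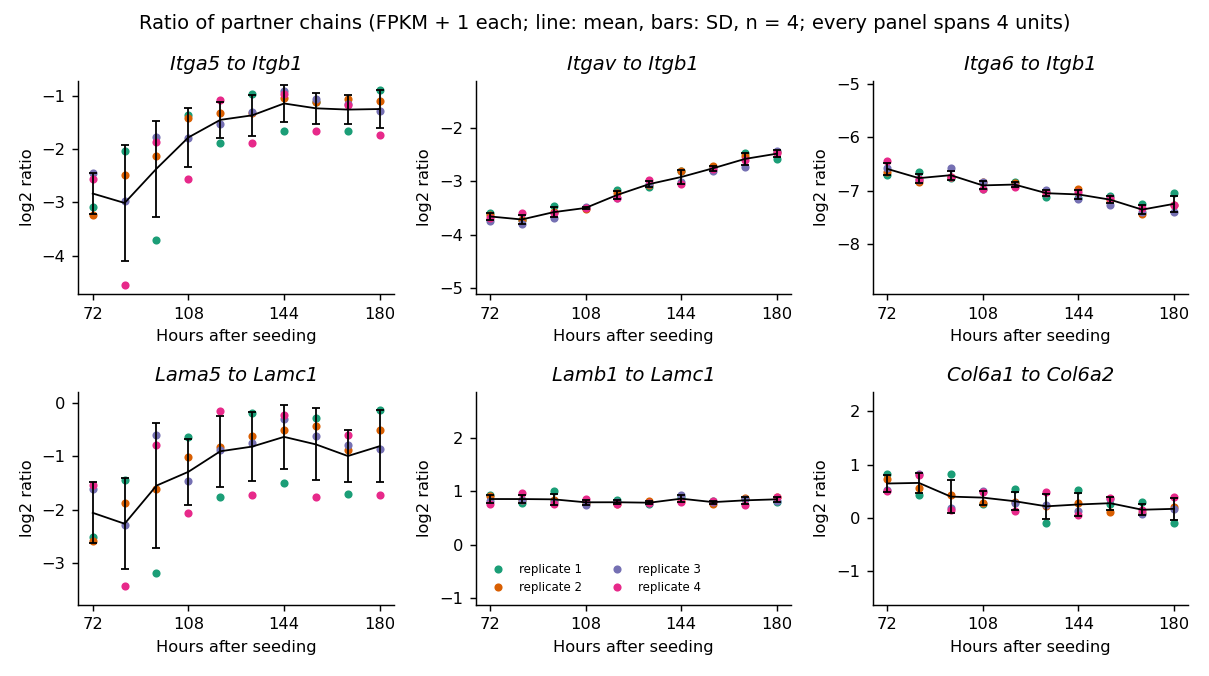
Log2 ratio of 6 pairs of partner chains in each library against hours after seeding, with the mean and SD of 4 libraries; every panel spans 4 log2 units. The ratios of Itga5 and Itgav to Itgb1 rise and that of Itga6 falls. Lamb1 to Lamc1 has means of 0.86 at 72 h and 0.85 at 180 h, with lower means at times between, among them 108, 120, 132, 156 and 168 h.

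The culture was split into 3 windows of 36 h, and most calls fell in the first and second. From 72 h to 108 h, 7 members rose (7.46% of all genes) and 1 fell (11.2%). The risers were Col8a1 (0.72 ± 0.07), Col17a1 (0.36 ± 0.09), Itga5 (1.09 ± 0.33), Itga7 (0.91 ± 0.28), Col12a1 (0.54 ± 0.19), Col6a1 (1.03 ± 0.36) and Itgax (0.62 ± 0.22). Itga6 fell by 0.27. From 108 h to 144 h, 4 rose (3.03% of all genes) and 2 fell (12.7%). Col8a1 (0.64 ± 0.07), Itgav (0.47 ± 0.12), Itgax (0.81 ± 0.22) and Col7a1 (0.90 ± 0.30) were the risers, and Itga6 fell by 0.28. With the axis as a covariate 16 members rose in each of these windows, against 25.2% and 16.2% of all genes, and 1 and 3 fell (23.2% and 27.8%). With median-ratio scaling 6 rose and 0 fell in each. The first count moved to between 2 and 4 when replicate 1 or 2 of 72 h or replicate 1, 2 or 3 of 108 h was left out, and the second to 2 without replicate 4 of 108 h or of 144 h.

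From 144 h to 180 h only Col8a1 (0.36 ± 0.07, adjusted p = 0.00319) and Itgav (0.45 ± 0.12, adjusted p = 0.0464) passed, both upward (0.473% of all genes). No member was called lower by limma (0.914% of all genes), 1 had an unadjusted p below 0.05 downward, and with the axis as a covariate 3 were higher and 3 lower (2.71% and 8.56% of all genes). Leaving out replicate 2, 3 or 4 of 144 h or of 180 h left 1 of the 2 risers. Means of 6 collagens, Itga5, Itga7, Itgb5, Lama5 and Lamb2 were highest at 144 h. Col8a1, Col12a1, Itga1, Itgav, Itgax and Col6a2 were highest at 168 h or 180 h. At 144 h Col6a1 had covered 104% of its difference between the means of 72 h and 180 h, Itga5 110.2% and Col16a1 109.7%, but Col8a1 68.5%, Col12a1 55.6% and Itgav 50.2%. By 108 h Itga5 was at 63.7% and Itgav at 12.3%.

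Col17a1 was the only member that lay midway above both ends and passed the test. It reached 1 FPKM in 20 of the 40 libraries, among them every library of 120 h and 132 h and none of 72 h or 84 h. It passed the filter through times at which it was high, so its midway call is not independent of the filter. Its mean over 120 h and 132 h was higher than that over 72, 84, 168 and 180 h by 0.27 ± 0.05 (adjusted p = 0.00139), against 2.1% of all genes. Col7a1, Itga5 and Itga7 also passed this contrast (adjusted p = 0.0236, 0.0474 and 0.0305), but their midway means were below those of the last times. No member that lay below both ends passed (limma, 0 also at an unadjusted p below 0.05, against 1.37% of all genes called). Col17a1 went from 0.508 ± 0.082 FPKM at 72 h to 1.24 ± 0.12 FPKM at 144 h and stood at 0.969 ± 0.180 FPKM at 180 h. This count came to 8 with the axis as a covariate, and to 2 or 3 without replicate 1 of 84, 120 or 180 h, replicate 4 of 132 h or replicate 4 of 168 h. The change of the last window minus that of the first differed from 0 in Col17a1 (-0.54 ± 0.12) and Col8a1 (-0.36 ± 0.10), against 3.27% of all genes (2.06% in the negative direction). With the axis as a covariate 1 member had a positive and 16 a negative difference, against 13.4% and 22.1% of all genes.

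Members differed in how far they followed the within-time axis. In 13 of 24 the slope was over 0.3 on the log2 scale per SD of the score, as in 13.7% of all genes. Lama5 (0.70), Col16a1 (0.70), Col6a2 (0.61), Lamb2 (0.54), Itgb4 (0.50), Col6a1 (0.46) and Col4a1 (0.45) had the steepest slopes. In Col16a1, Col6a1, Col7a1, Col27a1, Lama5, Lamb2, Itgb4, Itga5 and Itgax the lowest library was the one lowest on the axis at all 10 times. Col8a1 (-0.002), Col17a1 (0.03), Lamb1 (0.04), Lamc1 (0.08), Itga6 (-0.07), Itgb1 (-0.09), Col12a1 (-0.12), Itgav (-0.14) and Itga1 (-0.14) had slopes near 0 or below it. Adding the axis as a covariate leaves every change at 180 h against 72 h as it is, since its score averages to 0 at each time, and narrows the error: that of Col6a2 went from 0.48 to 0.05 and that of Lama5 from 0.55 to 0.09. The axis was estimated from the same libraries, after the mean of each time was removed. It therefore cannot correct a shift of a whole time along the axis, and the narrower error leaves such shifts out. Errors and p-values with this covariate may thus be too small, and the counts with it too large. With the covariate, 17 members were higher and 3 lower at 180 h, against 27.5% and 40.9% of all genes.

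**Figure D5:**
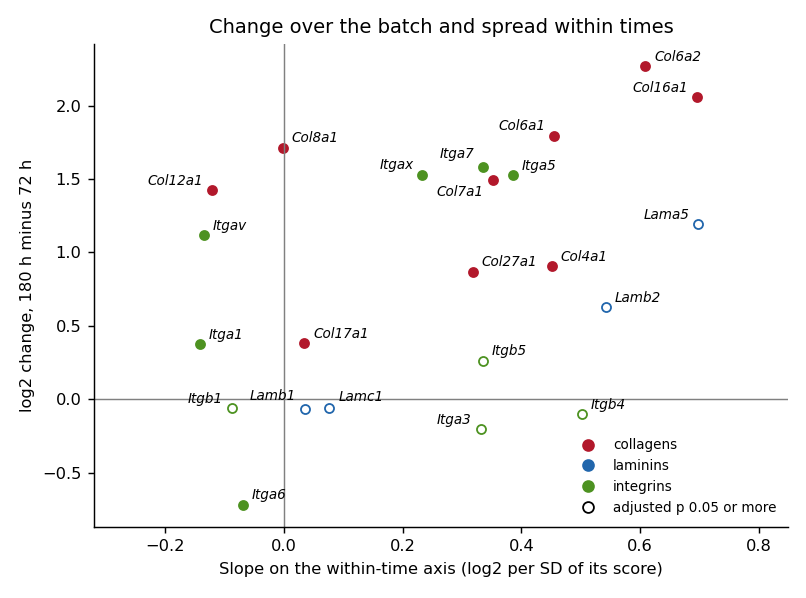
Log2 change at 180 h against 72 h (vertical) against the slope on the within-time axis (horizontal) for the members named here. Col8a1, Col12a1 and Itgav changed by 1.12 to 1.71 at slopes of 0 or below, whereas Lama5, with the steepest slope, has an open point (short of the threshold).

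Most genes that modify and fold collagen chains were higher at 180 h than at 72 h. Of 17 measured genes 13 rose and 0 fell (limma, 0 lower also at an unadjusted p below 0.05), with a median change of 0.87, against 15.8% higher and 33.5% lower over all genes. The largest rises were those of lysyl hydroxylase Plod1, from 52.03 ± 12.1 to 290.01 ± 65.6 FPKM (2.46 ± 0.32, adjusted p = 8.03e-08), of the hydroxylase partner P3h4 (1.81 ± 0.36), of the collagen galactosyltransferase Colgalt1 (1.52 ± 0.34) and of P3h3 (1.43 ± 0.44). Prolyl hydroxylase subunit P4ha1 stood at 120 ± 16.5 and 128 ± 16.5 FPKM (0.10 ± 0.13). The export receptor Mia3 (-0.03 ± 0.07), Plod2 (0.24 ± 0.14) and the chaperone Serpinh1 (0.70 ± 0.35, adjusted p = 0.0916) also missed the threshold. Processing and cross-linking genes had 7 of 9 higher and 0 lower, unadjusted p included (median 1.08), against the same 15.8% and 33.5%. Transglutaminase Tgm2 (2.31 ± 0.26), the procollagen enhancers Pcolce (1.67 ± 0.32) and Pcolce2 (1.45 ± 0.09) and the procollagen protease Bmp1 (1.51 ± 0.28) led them.

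Other matrix proteins had 6 of 11 genes higher and 1 lower (median 0.88), against 15.8% and 33.5% of all genes. Emilin1, an elastic fibre protein, rose by 2.55 ± 0.62, the proteoglycan Dcn by 1.92 ± 0.14, Sparc, which binds collagen, by 1.52 ± 0.09 and Bgn by 1.23 ± 0.11. Dcn averaged 0.419 FPKM at 72 h and 4.38 FPKM at 180 h and so passed the filter only through later times. Ntn4, a laminin-related protein of basement membranes, fell by 0.26. Hspg2, the basement membrane proteoglycan perlecan, stood at 50.5 ± 29.99 and 87.8 ± 36.4 FPKM (0.88 ± 0.59, adjusted p = 0.221).

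Receptors for matrix other than integrins had 7 of 11 genes higher and 1 lower (median 0.57), against 15.8% and 33.5% of all genes. Syndecan Sdc1 (1.16 ± 0.38), Adgrg1 (1.01 ± 0.34) and the hyaluronan receptor Cd44 (0.74 ± 0.10) rose. The collagen receptor kinases went opposite ways: Ddr1 rose from 4.31 ± 1.97 to 11.7 ± 5.90 FPKM (1.20 ± 0.47, adjusted p = 0.0333), and Ddr2 fell from 63.6 ± 3.57 to 43.0 ± 6.18 FPKM (-0.56 ± 0.11, adjusted p = 9.87e-05).

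Inside the cell, genes of the integrin-linked adhesion complex had 5 of 30 members higher and 6 lower, and 19 did not pass (median 0.15). Over all genes 15.8% were higher and 33.5% lower, so the share of higher genes is near that background. Parva, an actin-binding partner of integrin-linked kinase, fell from 233 ± 12.9 to 121 ± 14.8 FPKM (-0.95 ± 0.10, adjusted p = 1.99e-09). Lims1 (-0.58 ± 0.10) and focal adhesion kinase Ptk2 (-0.52 ± 0.07) also fell. Integrin-linked kinase itself, Ilk, stood at 54.0 ± 2.10 and 58.5 ± 3.97 FPKM (0.11 ± 0.12). Tns2 (1.16 ± 0.36), the kinase Src (1.09 ± 0.29), Dab2 (0.42 ± 0.09) and Tns1 (0.40 ± 0.16) were the largest rises past the test. Bcar1 (0.92 ± 0.43) and Git1 (0.75 ± 0.49) changed by more than Dab2 but missed the threshold. The activators of integrins, Tln1 (0.12 ± 0.23) and Fermt2 (0.05 ± 0.13), did not pass.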

How the data were processed

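Messenger RNA of CHO-S cells was sequenced as read pairs from stranded libraries, per the labels' protocols. FastQC, Trimmomatic 0.32, SAMtools 1.0 and Cufflinks 2.2.1 were used, per the submitters' processing notes; for the aligner, build, annotation and strand setting, nothing is given in the sources used here. The deposited files hold FPKM made by the authors, 1 file per library, with no read counts. Lines of 1 gene ID were summed, since the 40 files list them in 40 orders; 23 lines without ID hold 0. Names and neighbours of genes were looked up in a RefSeq table (CriGri-PICRH-1.0), which matched 23196 of 26793 IDs and gave 15217 of them a symbol. Reads shared between related genes could not be told apart. Genes with at least 1 FPKM in 4 libraries entered limma 3.58.1 (R 4.3.3) on the log2(FPKM + 1) scale (mean per time, trend, robust, 30 residual degrees of freedom). The fit was checked on simulated data with noise drawn independently for each gene. That check does not cover errors shared between genes, such as those along the within-time axis. Replicate numbers were not used as pairs. Single values of 1 member and of 1 gene of the pathway lists are not reported here, though both enter the counts. Partner ratios used exact permutation tests. Members and lists were chosen with earlier results of these data known. Values per library are given for the members with the 6 largest rises and the largest reported fall past the test, the most abundant, Col4a1 and the midway member; those of Itga5 and Itgav were added after their values were seen. Of each pathway list up to 4 genes past the test were named per direction; those short of it were picked after their values were seen. Alternatives covered pseudocount, filter, scaling, replicate block, weights, within-time axis, moderation, fold minimum, samples in the fit, genes on several lines and leaving out libraries.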

Additional observations from a re-analysis of the deposited data

Results flagged for a closer look

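Among 240 groups of 4 libraries (24 members at 10 times), 18 held 1 library that lay far from the other 3 by Dixon's ratio on the log2(FPKM + 1) scale, where chance gives about 5%. In 15 of the 17 given here it was the library lowest on the within-time axis. Replicate 4 of 156 h held 6 of them, all low: Col16a1 (43.04 FPKM, nearest other 90.2), Col27a1 (1.76), Col6a1 (209.8, nearest other 338), Col7a1 (2.16), Itga7 (4.31) and Lamb2 (10.06). Replicate 1 of 168 h held 5, also low: Col16a1 (48.9 FPKM), Col4a1 (220.1, nearest other 329.6), Col6a1 (216), Col6a2 (175) and Itgb4 (1.498). The other low ones were Col7a1 in replicate 1 of 144 h (2.66 FPKM), Itga5 in replicate 1 of 96 h (33.04, nearest other 89.2) and Lamb1 in replicate 4 of 108 h (161). Libraries above the others were Col12a1 in replicate 4 of 72 h (6.12 FPKM), Itga1 in replicate 4 of 84 h (2.52) and Col17a1 in replicate 3 of 132 h (1.40). The part of the axis in these values was not tested.

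Col17a1 and Col8a1 changed less from 144 h to 180 h than from 72 h to 108 h, by -0.54 and -0.36 on the log2 scale (limma, test of the difference between the windows). Col17a1 rose in the first window and had means of 1.24 FPKM at 144 h and 0.969 FPKM at 180 h, while Col8a1 rose in both.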

How the results depend on the processing

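Depth is unknown, so values under about 1 FPKM have no stated precision. At 180 h against 72 h the counts of members kept within 1.5 times under most alternatives: leaving out 1 library gave 13 to 15 higher and 2 lower. A minimum fold of 1.5 gave 9 higher and 0 lower, with Col16a1, Col17a1, Col27a1, Col4a1 and Itga1 no longer called. A filter of 5 FPKM gave 0 lower, since both fallers are under it. The window counts were less firm. From 72 h to 108 h the main counts were 7 higher and 1 lower. There were 4 higher without a filter, 16 with array weights, 16 with the axis as a covariate, 18 with both and 0 with the minimum fold. None was lower with a pseudocount of 0.1, without a filter, with a filter of 5 FPKM, with median-ratio scaling, with the minimum fold or with only the libraries compared (0 in each), and leaving out 1 library gave 2 to 9 higher and 0 lower. From 108 h to 144 h (4 and 2) there were 11 higher with array weights, 16 with the axis, 15 with both, 0 with the minimum fold and 2 with only the libraries compared. There was 1 lower with a pseudocount of 0.1 and with the replicate block, and 0 without a filter, with the 5 FPKM filter, with median-ratio scaling, with the minimum fold and with only the libraries compared. Leaving out 1 library gave 2 to 5 higher and 0 to 1 lower.

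From 144 h to 180 h (2 and 0) there was 1 higher without a filter, without trend and robust estimation and with only the libraries compared, and 0 with the minimum fold. There was 1 lower with array weights, 3 with the axis and 6 with both, and leaving out 1 library gave 1 to 2 higher. Midway members (1) came to 8 with array weights, 8 with the axis, 9 with both and 0 with the 5 FPKM filter or the minimum fold, and to 1 to 3 with 1 library left out. Members with different windows (2) came to 18 with array weights, 17 with the axis, 17 with both, 1 with a pseudocount of 5, the 5 FPKM filter or median-ratio scaling and 0 with the minimum fold, and to 1 to 2 with 1 library left out. Partner ratios past the test (7) came to 0 with a pseudocount of 5 and to 0 to 8 with 1 library left out. The pathway lists had 38 higher and 8 lower, and 5 lower with median-ratio scaling, which moved the median change of all genes from -0.10 to 0.01. The axis as a covariate leaves the estimates as they are and narrows the error of members that follow it. That error leaves out shifts of a whole time along the axis. The cause of the other moves was not tested.

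Directions turned only in members and pairs short of the threshold. With median-ratio scaling Itgb1 (0.0808), Itgb4 (0.00335), Lamb1 (0.0766) and Lamc1 (0.0812) turned positive, and with array weights Itga3 (0.0163) and Itgb4 (0.21). With 1 library left out Itgb4 ran from -0.27 to 0.0796, the ratio of Lamb1 to Lamc1 from -0.0387 to 0.01997 and that of Itga3 to Itgb1 from -0.28 to 0.0481. The calls of Col4a1, Itga1 and Lama5 that turned on 1 library are given beside them. Without the 2 libraries farthest out, chosen after seeing the data, 15 members were higher and 2 lower at 180 h. Same-numbered libraries of different times did not deviate together in the median (correlation 0.01, lowest -0.78, 60 of 180 pairs over 0.1). A library correlated best with its own number in 47 of 180 comparisons. Scores of some replicate numbers on the within-time axis switched sign from each time to the next, as described above. A median over all pairs of times can average such a pattern out. These values therefore cannot decide whether the numbers pair libraries. With the replicate block 14 were higher and 2 lower at 180 h, and 18 differed over all 10 times. Pairs whose chains were not both measured were not run.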
